A study of Mus musculus with 12 samples.

Results

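Small nucleolar RNA (snoRNA) host genes are transcribed as long RNAs whose introns hold snoRNAs or the related small Cajal body RNAs (scaRNAs). After splicing, the small RNA is trimmed out of the intron and joins proteins that guide chemical modification of ribosomal or spliceosomal RNA, while the exons are joined into a host transcript. Gas5, the Snhg genes and Zfas1 have host transcripts with little coding potential, and several such transcripts are known to be bound by ribosomes in the cytoplasm and destroyed by nonsense-mediated decay, a pathway that needs ongoing translation. Blocking translation is therefore known to raise some of them, whereas blocking transcription lets short-lived transcripts run down.

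The members were chosen by gene symbol, as a list of 8 non-coding snoRNA hosts: Gas5, Snhg1, Snhg3, Snhg6, Snhg8, Snhg12, Snhg20 and Zfas1. Of the 31053 genes counted in each library, 3 were members: Snhg6, Snhg12 and Snhg20. Gas5, Snhg1, Snhg3, Snhg8 and Zfas1 were not analysed here. Those 5 belong to the annotation class "processed transcript" in GENCODE, of whose 790 genes 10 were counted, whereas the 3 analysed members are long intergenic non-coding RNAs (lincRNAs), a class with 5459 of 5854 genes counted. Per the study's methods, reads were counted against a filtered Ensembl annotation. What follows therefore concerns 3 host genes and says nothing of Gas5.

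Microglia and other myeloid cells were sorted as CD45+/CD11b+ cells from whole brains of 12 male C57BL/6J mice at postnatal day 90, with 1 mouse per library and n = 3 per group. Each brain was dissociated either mechanically and on ice in a Dounce homogenizer or by warm enzymatic digestion, in each case with or without an inhibitor cocktail. DNC-NONE was Dounce without inhibitors, DNC-INHIB Dounce with inhibitors, ENZ-NONE digestion without inhibitors and ENZ-INHIB digestion with inhibitors. Per the study's methods the cocktail combined actinomycin D and triptolide, which block transcription, with anisomycin, which blocks translation, so the effects of the 2 kinds of inhibitor cannot be told apart. All animals were of the same strain, sex and age, and none carried a genetic change per the labels. Transcripts were counted at their 3' ends in droplets as unique molecular identifiers (UMIs), and levels are given as counts per 1e+06 UMIs of a library (CPM). After filtering, 18826 cells remained, with 853 to 2185 cells and 1059783 to 3233159 UMIs per library. All 8 microglial markers were detected and their summed level was 33273 to 38412 CPM.

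All 3 analysed members are short genes by the GENCODE models for the mouse genome build GRCm38 (mm10). Snhg6 (ENSMUSG00000098234) spans chr1:9941959-9944118 on the minus strand, and its 3' end shares 127 bases with Mcmdc2 on the opposite strand. Snhg12 (ENSMUSG00000086290) spans chr4:132308623-132311024 on the plus strand and Snhg20 (ENSMUSG00000086859) spans chr11:117076008-117078955 on the plus strand, and neither overlaps a gene other than the small RNAs it carries. Snhg6 hosts 1 snoRNA, Snord87, which lies outside the exons of all 5 annotated Snhg6 transcripts. Snhg12 hosts 4, Snora16a, Snora44, Snora61 and Snord99. In that order they overlap exons of 2, 2, 5 and 3 of its 10 annotated transcripts. Snhg20 hosts 1 scaRNA, annotated as Gm26083, which overlaps the microRNA gene Mir6516. Gm26083 also overlaps exons of 2 of the 7 annotated Snhg20 transcripts.

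The hosted small RNAs are shown because they are what makes these genes a group, and because they show the 2 families that the hosts serve. Sequences are from the GENCODE transcripts, 5′ to 3′. In the box C/D family the capitals mark box C near the 5′ end and box D near the 3′ end, the sites at which methylation-guiding complexes assemble.
Snord87, from Snhg6, chr1:9942463-9942549, minus strand: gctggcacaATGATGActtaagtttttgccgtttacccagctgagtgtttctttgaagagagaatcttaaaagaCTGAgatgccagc
Snord99, from Snhg12, chr4:132310691-132310764, plus strand: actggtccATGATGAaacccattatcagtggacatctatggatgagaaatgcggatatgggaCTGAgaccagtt
In the box H/ACA family, which guides pseudouridylation, the capitals mark the ACA box near the 3′ end.
Snora61, from Snhg12, chr4:132310240-132310369, plus strand: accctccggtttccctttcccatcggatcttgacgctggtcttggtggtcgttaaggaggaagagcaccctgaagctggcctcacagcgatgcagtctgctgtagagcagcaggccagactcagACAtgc
Gm26083, the scaRNA from Snhg20, chr11:117077243-117077435, plus strand: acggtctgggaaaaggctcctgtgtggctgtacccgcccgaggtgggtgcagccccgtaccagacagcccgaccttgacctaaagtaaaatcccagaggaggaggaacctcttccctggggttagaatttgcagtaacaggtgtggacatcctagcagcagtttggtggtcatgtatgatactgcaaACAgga
These small RNAs have no poly(A) tail of their own, so the UMIs counted below come from the host transcripts and not from the snoRNAs.

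Snhg20 was the member whose level differed between the isolation methods. In cold Dounce preparations without inhibitors its level was 55.6, 72.7 and 87.7 CPM in replicates 1, 2 and 3, and with inhibitors it was 81.8, 85.5 and 73.6 CPM in replicates 4, 5 and 6. In digested preparations without inhibitors it was 45.9, 48.8 and 31.1 CPM in replicates 4, 5 and 6, and with inhibitors 51.7, 50.5 and 54.2 CPM in replicates 1, 2 and 3. Every digestion library was below every Dounce library, the highest of the former standing at 54.2 CPM and the lowest of the latter at 55.6 CPM. The group means were 72.0 ± 16.04 CPM in DNC-NONE, 80.3 ± 6.09 in DNC-INHIB, 42.0 ± 9.49 in ENZ-NONE and 52.1 ± 1.87 in ENZ-INHIB (SD, n = 3 each). These levels rest on 75 to 238 UMIs per library.

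**Figure D1:**
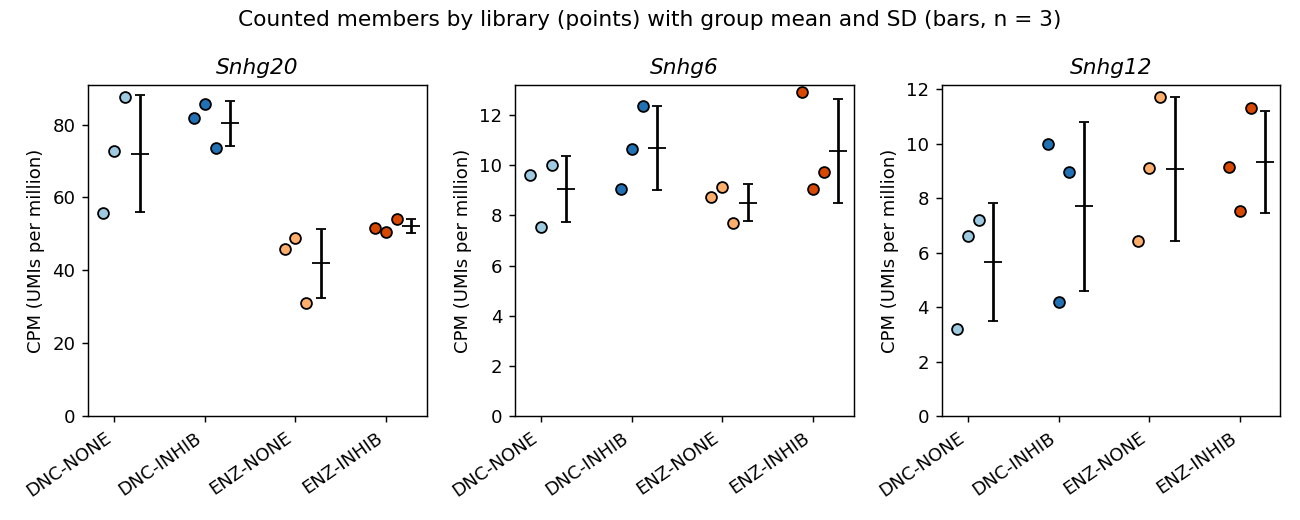
Level of each analysed member (CPM, vertical axis from 0) in the 4 groups, with 1 point per library and the group mean ± SD beside the points. Snhg20 lies between 31.1 and 54.2 CPM in the 6 digestion libraries and between 55.6 and 87.7 CPM in the 6 Dounce libraries, whereas the groups of Snhg6 and Snhg12 overlap.

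Averaged over both inhibitor states, Snhg20 fell with digestion by 0.68 on the log2 scale (SE 0.11, 95% interval -0.90 to -0.46; edgeR quasi-likelihood test, Benjamini-Hochberg adjusted p = 0.00073), to 0.624 of the Dounce level. It was the only one of the 3 members called in this comparison, in which 1.24% of the 9882 genes tested fell and 1.61% were called in either direction. Separation of all 6 digestion libraries below all 6 Dounce libraries was seen for 1.21% of genes. Within batch 1 the mean was 48.8 CPM in 3 digestion libraries and 70.0 CPM in 3 Dounce libraries, and within batch 2 it was 45.3 and 82.3 CPM. Without inhibitors the digestion mean was 73.9% of the Dounce mean in batch 1 (2 libraries of each) and 35.5% in batch 2 (1 of each). With inhibitors it was 63.2% in batch 1 (1 of each) and 65.8% in batch 2 (2 of each).

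Snhg20 was lower after digestion in both inhibitor states. Without inhibitors, digestion lowered Snhg20 by 0.75 on the log2 scale (SE 0.16, adjusted p = 0.023), in a comparison in which 0.516% of genes were called and 0.213% fell. Leaving out DNC-NONE replicate 2, DNC-NONE replicate 3 or ENZ-NONE replicate 6 ended that call, with adjusted p of 0.11, 0.23 and 0.13. With inhibitors in both preparations the difference was -0.61 (SE 0.14, 95% interval -0.91 to -0.31), and the adjusted p of 0.075 missed the threshold in a comparison with 0.223% of genes called. The difference between these effects, tested as an interaction, was 0.14 (SE 0.22, 95% interval -0.31 to 0.58, adjusted p = 1.00), where 0.0607% of genes were called. An interval of that width still allows the effect of digestion to differ between the inhibitor states by up to 1.50-fold.

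Addition of the inhibitors left Snhg20 uncalled, with DESeq2 as well. Averaged over methods its log2 difference was 0.24 (SE 0.11, 95% interval 0.021 to 0.47), with an unadjusted p of 0.033 and an adjusted p of 0.75. In this comparison 0.0708% of genes were called, all of them lower with inhibitors. Within Dounce the difference was 0.17 (SE 0.14, adjusted p = 1.00) and within digestion 0.31 (SE 0.16, adjusted p = 0.99). The share of genes called was 0% within Dounce (DESeq2 called 1 gene, and 435 passed at an unadjusted p under 0.05) and 0.334% within digestion. The upper ends of these intervals were 1.38-fold averaged over methods and 1.56-fold within digestion. Inhibitors were spread unevenly over the batches, and the main fit had no batch term. In batch 1 the mean was 66.8 CPM in 2 libraries with inhibitors and 55.8 CPM in 4 without. In batch 2 it was 66.0 CPM in 4 libraries with inhibitors and 59.4 CPM in 2 without.

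**Figure D2:**
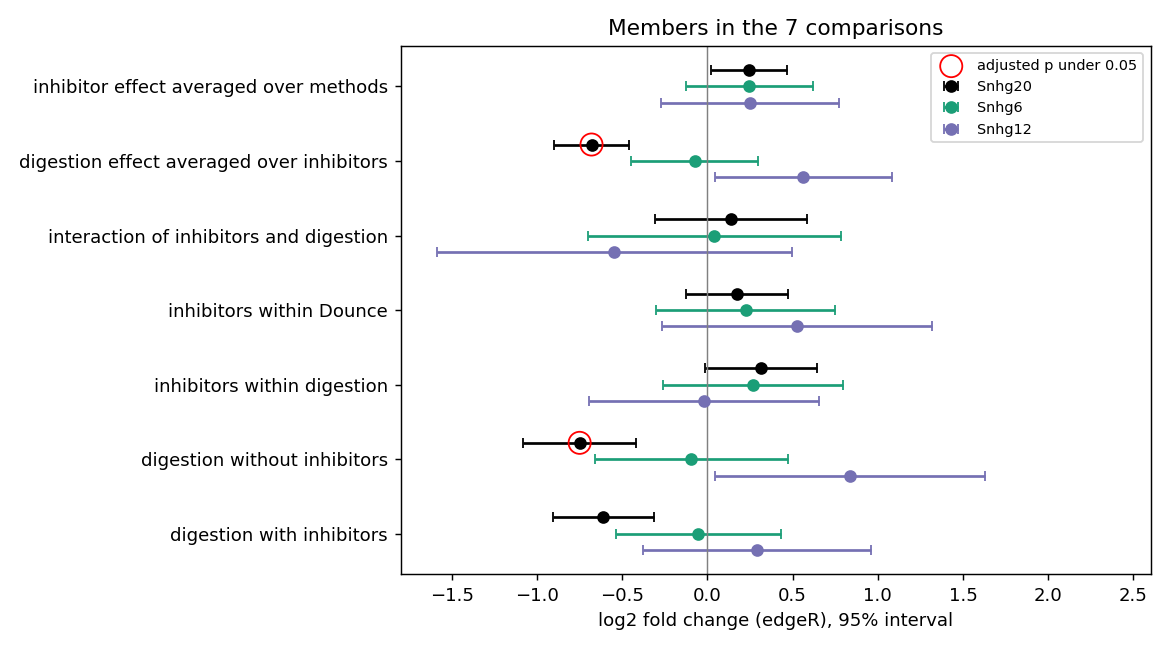
Log2 fold change (horizontal axis) of Snhg20, Snhg6 and Snhg12 in the 7 comparisons, with 95% intervals from the edgeR fit and a red ring where the adjusted p was under 0.05. Only Snhg20 is ringed, in the comparison of digestion averaged over inhibitors (-0.68) and in that without inhibitors (-0.75).

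Snhg20 was read in few cells. With every cell thinned to 1000 UMIs, which sets all cells to one depth, 6.75% ± 1.67 of DNC-NONE cells held a Snhg20 UMI, against 7.82% ± 0.109 in DNC-INHIB, 4.05% ± 0.780 in ENZ-NONE and 4.99% ± 0.590 in ENZ-INHIB (SD, n = 3 each). Single libraries ran from 3.15% (95% Clopper-Pearson interval 2.38 to 4.08) in ENZ-NONE replicate 6 to 8.45% (7.05 to 10.0) in DNC-NONE replicate 3. Without thinning the group means were 8.81%, 10.5%, 5.61% and 7.50% in the same order. The share that free RNA in the droplets would give was not estimated, since none of these cell types is known to be free of Snhg20.

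Cell depth differed by method, with overlap. The median depth of a kept cell was 1153 to 1408 UMIs in Dounce libraries and 1291 to 1572 in digestion libraries. Among digestion libraries it also differed by batch, at 1291 to 1319 in batch 1 and 1484.5 to 1572 in batch 2. In digestion 3736 cells held 1500 UMIs or more and 5322 held fewer, against 2265 and 7503 in Dounce. Snhg20 stood at 81.7 CPM (95% Poisson interval 75.9 to 87.7) in Dounce cells of 1000 to under 1500 UMIs and at 62.7 CPM (55.3 to 70.8) in deeper Dounce cells, pooled over libraries. In digestion cells it was 51.2 CPM (45.9 to 56.9) and 42.0 CPM (37.3 to 47.2) in the same depth bands. Within libraries the deeper cells held the lower level in 5 of 6 Dounce and 5 of 6 digestion libraries. The exceptions were DNC-NONE replicate 2, at 70.3 CPM in the shallower and 84.3 CPM in the deeper cells, and ENZ-NONE replicate 5, at 47.0 and 52.3 CPM, while DNC-INHIB replicate 5 stood at 86.4 and 83.3 CPM. Summing only cells of 1000 to under 1500 UMIs gave a digestion difference of -0.64 averaged over inhibitors (adjusted p = 0.00045), and the difference without inhibitors, -0.63, then had an adjusted p of 0.059.

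**Figure D3:**
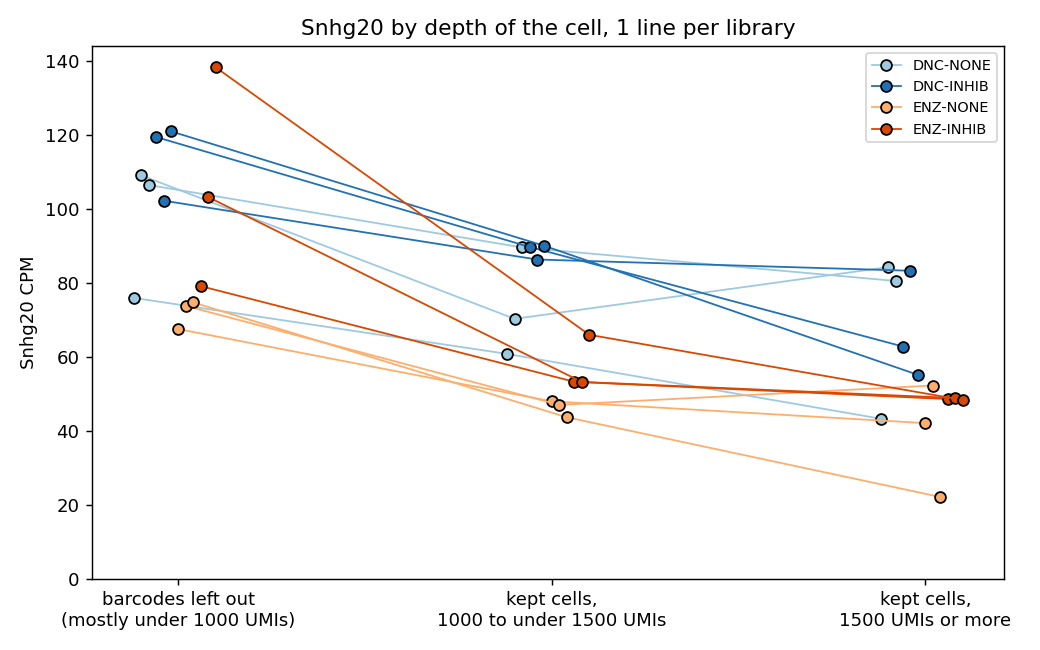
Snhg20 level (CPM, vertical axis from 0) in barcodes left out by the cell filter, in kept cells of 1000 to under 1500 UMIs and in deeper kept cells, with 1 line per library coloured by group. The level is higher in the left-out barcodes than in the kept cells of the same library in 12 of 12 libraries, and in kept cells of 1000 to under 1500 UMIs the pooled levels are 81.7 CPM for Dounce and 51.2 CPM for digestion.

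Activated cells were more frequent after digestion without inhibitors. After thinning, this class was formed by cells in which 4 or more of 19 activation genes were counted, genes such as Fos, Jun and Dusp1. These 19 are the list that the study's supplement gives for scoring all brain cells, and not its longer list for myeloid cells. This class made up 28.5% to 57.0% of cells in ENZ-NONE libraries, and 0.478% to 8.92% in the other libraries. ENZ-INHIB libraries stood at 0.478% to 0.956%. The 8.92% was in DNC-NONE replicate 1, which at 55.6 CPM was also the Dounce library lowest in Snhg20. In ENZ-NONE, Snhg20 stood at 30.3 CPM (95% Poisson interval 23.9 to 37.8, 78 UMIs) in cells of the class and at 47.6 CPM (40.9 to 55.1, 179 UMIs) in the remaining cells that carried no macrophage or monocyte marker set. The same order was seen in each of the 3 libraries: 33.9 and 51.4 CPM in replicate 4, 38.9 and 53.4 CPM in replicate 5, and 26.3 and 37.0 CPM in replicate 6. The intervals of the 2 classes overlap within each library. Without the cells of this class, the edgeR digestion difference of Snhg20 averaged over inhibitors was -0.58 (adjusted p = 0.0025). The difference without inhibitors was then -0.55 and no longer called (adjusted p = 0.24), and with inhibitors it was -0.61 and called (adjusted p = 0.048). Cells with fewer than 4 of the 19 genes stayed in these fits. Whether activation bears on the level of Snhg20 was not tested.

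Other myeloid cells were few. Snhg20 was at 75.3 CPM (95% Poisson interval 46.0 to 116) in 162 cells with at least 3 of 8 border macrophage markers and at 25.8 CPM (10.4 to 53.2) in 127 cells with at least 3 of 8 monocyte markers, on 20 and 7 UMIs. Another 64 and 243 cells lay 1 marker short of these limits. The summed monocyte markers stood at 1973 to 3080 CPM in DNC-NONE and at 698 to 1695 CPM in the other groups, with none of the 8 at 0. The summed border macrophage markers stood at 107 to 317 CPM in DNC-NONE and at 58.0 to 141 CPM in the other groups, again with none of the 8 at 0. Leaving out every cell with 2 or more of either set of markers gave a digestion difference of -0.70 averaged over inhibitors (adjusted p = 0.00018).

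Snhg6, the host of Snord87, was not called in any of the 7 comparisons, with edgeR or DESeq2. Its level was 9.60, 7.55 and 9.99 CPM in DNC-NONE, 9.04, 10.6 and 12.4 CPM in DNC-INHIB, 8.72, 9.12 and 7.69 CPM in ENZ-NONE, and 12.9, 9.05 and 9.74 CPM in ENZ-INHIB. The groups overlapped throughout, on 8 to 40 UMIs per library. Digestion differed from Dounce by -0.073 (95% interval -0.45 to 0.30, adjusted p = 0.92) and inhibitors from none by 0.25 (-0.13 to 0.62, adjusted p = 0.87). Since it shares its 3' end with Mcmdc2 on the other strand, part of its count would be uncertain if reads were not kept apart by strand.

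Snhg12, which carries 4 snoRNAs of both families, had the fewest UMIs in total of the 3. It was counted at 3.20, 6.61 and 7.22 CPM in DNC-NONE, 9.99, 4.18 and 8.97 CPM in DNC-INHIB, 6.43, 9.12 and 11.7 CPM in ENZ-NONE, and 9.16, 7.54 and 11.3 CPM in ENZ-INHIB, on 7 to 32 UMIs per library. The lowest values lay in Dounce libraries, but the methods overlapped. Its digestion difference averaged over inhibitors was 0.56 (SE 0.25, 95% interval 0.044 to 1.08), opposite in sign to that of Snhg20, with an unadjusted p of 0.035 and an adjusted p of 0.34. Without inhibitors it was 0.84 (SE 0.39, adjusted p = 0.57) and with inhibitors 0.29 (SE 0.33, adjusted p = 0.88). Inhibitors gave a difference of 0.25 averaged over methods (95% interval -0.27 to 0.77, adjusted p = 0.91). These intervals are wide, so for neither Snhg6 nor Snhg12 does the missing call show that the level stayed the same. The ratio of the Snhg12 mean with inhibitors to that without was 1.51 in batch 1 and 0.845 in batch 2.

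Further non-coding hosts were counted for 5 of 15 listed genes, and 3 of these passed the filter on low counts. Of those 3, edgeR and DESeq2 called 0 for digestion or for inhibitors, and 1 and 0 passed at an unadjusted p under 0.05. Over all genes edgeR called 1.61% and 0.0708%, so 0 of 3 is near the background. Snhg10 stood at means of 4.89 and 7.69 CPM in DNC-NONE and DNC-INHIB and at 3.62 and 2.01 CPM in ENZ-NONE and ENZ-INHIB, a digestion difference of -1.10 (SE 0.33, adjusted p = 0.094). Snhg9 stood at 12.1 to 23.4 CPM across libraries with a digestion difference of -0.079 (SE 0.15, adjusted p = 0.89). Epb41l4aos stood at 3.77 to 7.16 CPM with a digestion difference of 0.20 (SE 0.23, adjusted p = 0.80). Snhg11 had 8 UMIs over the 12 libraries and Snhg18 had 0, and neither was tested.

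Listed coding genes that carry snoRNAs in their introns were not called, where 1.61% of all genes were called for digestion and 0.0708% for inhibitors, so that a count of 0 is near the background and no result about the list. All 31 listed coding hosts, mostly ribosomal protein and translation genes such as Rpl13a, Eif4a2 and Ncl, were tested, and 0 were called for digestion (median log2 difference 0.0017, against 0.0046 over all genes) or for inhibitors (median 0.052, against -0.0017). None of the 15 listed snoRNP proteins, among them fibrillarin (Fbl), Nop58 and dyskerin (Dkc1), was called in either comparison, with medians of 0.039 and -0.030. At an unadjusted p under 0.05, 2 coding hosts and 0 snoRNP protein genes passed for digestion and 0 and 0 for inhibitors, and DESeq2 called 0 of either list.

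Transcript levels were also compared for 24 genes of decay factors, including Upf1, Smg1 and the exon junction protein Eif4a3. All 24 were tested and 0 were called for digestion (median 0.021) or for inhibitors (median 0.029). Over all genes 1.61% and 0.0708% were called, so a count of 0 is near the background and no result about the list. DESeq2 also called 0, and 1 and 2 passed at an unadjusted p under 0.05. Of 25 listed transcripts known to be held down by this decay, such as Atf4, Gadd45b and the splicing factor genes with poison exons, 22 were tested. For inhibitors 0 of the 22 were called by edgeR or DESeq2, 1 passed at an unadjusted p under 0.05, and their median was 0.023. With 0.0708% of all genes called there, that 0 is near the background too. For digestion 2 rose and 0 fell, with a median of 0.14, where 0.364% of all 9882 genes rose. DESeq2 also called 2, and 11 of the 22 passed at an unadjusted p under 0.05, against 1252 of all 9882 genes. Both that rose act on splicing. Clk4, a kinase of splicing factors, rose by 0.55 (SE 0.096, adjusted p = 0.0018), from means of 45.2 and 51.4 CPM in DNC-NONE and DNC-INHIB to 71.7 and 68.1 CPM in ENZ-NONE and ENZ-INHIB. Hnrnph1, which binds RNA to regulate splicing, rose by 0.50 (SE 0.094, adjusted p = 0.0035), from 53.1 and 63.9 CPM to 85.7 and 77.4 CPM.

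The fall of Snhg20 can be set beside counted genes that share 1 of its annotated features, in lists drawn up after the values were seen. GENCODE holds 352 genes whose span holds a snoRNA or scaRNA gene on the same strand, and 320 of them were counted. Of 24 such genes in the processed transcript class, that of Gas5, 1 was counted. Of 213 such genes tested, 205 were of classes other than lincRNA, so their rate is not one for non-coding hosts. Among the 213, 6 fell with digestion (2.82%, against 1.24% of all genes) and 1 rose, and DESeq2 called 4 in either direction. Of the 213, 6 had a lower log2 difference than Snhg20, and 2 of these 6 were called. The genes called lower beside Snhg20 were Gm42715, Chd8, Top2a, Odc1 and Prrc2b. Of these, Top2a had means of only 0.651 and 1.40 CPM in ENZ-NONE and ENZ-INHIB. Of 163 tested lincRNAs 17 fell (10.4%) and 3 rose, whereas of 9586 tested protein-coding genes 97 fell (1.01%). The median log2 difference was -0.18 over the lincRNAs and 0.0076 over the protein-coding genes. Among the lincRNAs 25 had a lower log2 difference than Snhg20, and 11 of these 25 were called. The called ones included Mir142hg, the host of the haematopoietic microRNA miR-142 (-2.33, adjusted p = 1.7e-05), Gm20045 (-1.47, adjusted p = 4.5e-06) and Lockd (-2.48, adjusted p = 0.023). For inhibitors averaged over methods edgeR called 0 of the 163 and DESeq2 called 1, and 19 passed at an unadjusted p under 0.05. Over all 9882 genes edgeR called 0.0708% and 648 passed unadjusted.

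**Figure D4:**
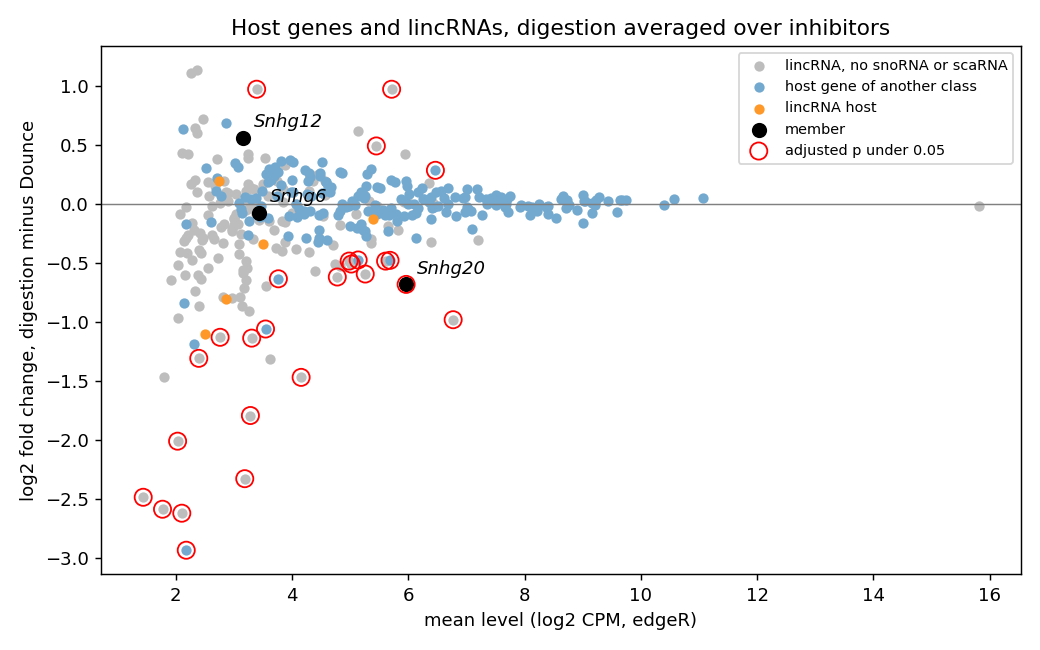
Log2 fold change of digestion against Dounce, averaged over inhibitors (vertical axis), against mean level (log2 CPM, horizontal axis) for tested host genes and lincRNAs, with the 3 members in black and a red ring at an adjusted p under 0.05. Snhg20 lies at -0.68 among 17 lincRNAs that fell, and Snhg6 and Snhg12 lie at -0.073 and 0.56 without a ring.

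The genes whose levels followed Snhg20 most closely over the 12 libraries were all protein coding, as were 9586 of all 9882 genes tested. Among 6033 genes with a mean of at least 20 CPM, the 10 with the highest Pearson correlation of log2(CPM + 1) were Leng8 (r = 0.93), Dennd6a (0.93), Sumf2 (0.91), Hyal1 (0.91), Fam212a (0.90), Ncbp3 (0.90), Tmem37 (0.88), Fiz1 (0.88), Bcdin3d (0.88) and Tpcn1 (0.88). Of these 10, 4 fell with digestion, namely Leng8, Hyal1, Fam212a and Bcdin3d, against 1.24% of all genes tested. Since the 10 were picked for following a transcript that differed by method, that count is no separate result. The points share the contrast between methods, and after each group's mean was taken off the correlations ran from 0.35 to 0.92. Snhg6 and Snhg12, below that level, had correlations of 0.33 and -0.33 with Snhg20, and of 0.13 and 0.080 after the group means were taken off. These are descriptions over 12 libraries.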

How the data were processed

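The deposited values are UMI counts per gene and cell, which the authors made with Cell Ranger 3.0.0 against its supplied mm10 reference, whose annotation is a filtered form of Ensembl's, 1 matrix per mouse, with no normalization. Reads that fit several genes are not counted by that software. Members and lists were chosen with earlier results of these data known. Cells with at least 500 genes, 1000 UMIs and at most 10% mitochondrial UMIs were kept (18826 of 28426). A marker rule for doublets removed 4 cells, too few to have worked, so doublets remain. Kept barcodes shared by 2 libraries numbered 0 to 12 per pair. Counts were summed per library and tested with edgeR 4.0.16 (TMM, filterByExpr, robust quasi-likelihood fit with 1 term per group over all 12 libraries), with Benjamini-Hochberg adjustment over 9882 genes and a call at adjusted p under 0.05. DESeq2 1.42.0 was an alternative, as were those in the closing section. Replicate pairs differed by 1.55 to 6.06 chi-square per degree of freedom, so each library counted as 1 replicate. Intervals of levels cover counting error only. A bulk sum cannot tell fewer expressing cells from less RNA per cell. Named genes were every member and further non-coding host tested and up to 4 called genes of each list. The likeness rule was written for Gas5 and was applied to Snhg20. Genes named from the 2 annotation lists were chosen after their values were seen.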

Additional observations from a re-analysis of the deposited data

Results flagged for a closer look

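The barcodes left out by the cell filter, 9600 in all and mostly under 1000 UMIs, entered only the fits with every deposited barcode. They held 6897524 UMIs together, so finding UMIs of each member in them is no result in itself. Snhg20 stood there at 98.2 CPM (95% Poisson interval 90.9 to 106, 677 UMIs) and was higher than in the kept cells of the same library in 12 of 12 libraries, with 106 CPM over the Dounce libraries and 82.8 CPM over the digestion libraries. Snhg6 stood at 10.0 CPM (69 UMIs) and was higher than in the kept cells in 5 of 12 libraries. Snhg12 stood at 7.68 CPM (53 UMIs) and was higher in 7 of 12.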

How the results depend on the processing

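The fall of Snhg20 with digestion averaged over inhibitors kept its direction and its call under all 10 other fits and all 12 fits without 1 library, from -0.83 to -0.58. With both the threshold and an absolute log2 difference over 0.58, the number of members called remained 1. 

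Without inhibitors, the number of members called went from 1 to 0 with activated cells left out and with cells of 1000 to under 1500 UMIs only, both chosen after seeing the data, and was 0 to 1 over the fits without 1 library. With inhibitors it went from 0 to 1 with no filter on low counts, without macrophage and monocyte marker cells, with thinned library sums and without activated cells, and was 0 to 1 over the fits without 1 library (1 without DNC-NONE replicate 1 or 3 or ENZ-NONE replicate 6). DESeq2 gave an adjusted p of 0.20 there.

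Sign changes were of differences that were not called. For Snhg6 the digestion difference averaged over inhibitors was 0.0011 with every deposited barcode, 0.10 with thinned sums and 0.055 in cells of 1000 to under 1500 UMIs. Without inhibitors it was 0.059 with every barcode and 0.056 in that band, and with inhibitors 0.27 with thinned sums, 0.054 in that band and -0.18 to 0.085 without 1 library. Its interaction was -0.12 with every barcode, -0.0020 in that band and -0.093 to 0.18 without 1 library, and its inhibitor difference within Dounce was -0.0045 with thinned sums. For Snhg20 the interaction was -0.18 with thinned sums, -0.061 without activated cells, -0.012 in that band and -0.062 to 0.33 without 1 library. Its inhibitor difference within Dounce was -0.020 to 0.37 without 1 library. For Snhg12 the inhibitor difference within digestion was 0.039 without activated cells and -0.24 to 0.28 without 1 library, and the digestion difference with inhibitors was -0.049 with thinned sums and -0.0029 to 0.46 without 1 library. The causes were not tested.

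Over all genes, the number called for digestion averaged over inhibitors was 159, and 61 to 336 under the other fits. For inhibitors it was 7, and 1 to 53. Replicate numbers 1 to 6 recur in a Dounce and a digestion group. Per the study each library came from its own animal, so a shared number does not mark 1 animal. Deviations of same-numbered libraries from their group means correlated at -0.081 to 0.15. Such weak correlations cannot show that these libraries were not linked in some other way. With the replicate block, Snhg20 fell with digestion by 0.68 and differed with inhibitors by 0.24, and the number of members called stayed at 1 and 0.

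Depth limits Snhg6 and Snhg12 most, since they rest on 7 to 40 UMIs per library.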
